A study of Rattus norvegicus with 9 samples.

Results

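The genes described here are 3 nuclear receptors that sense fatty acids or partner those that do (Pparg, Ppara and Rxra) and 6 genes under their direct control (Pdk4, Fabp4, Cd36, Ucp3, Angptl4 and Plin2). They were chosen by gene symbol in the platform annotation, and all 9 were on the array, with 12 probe sets among the 31042 that were not controls and 9 genes among the 14217 named. A further probe set annotated to Cd36 together with a second gene was not used. RNA came from islets isolated from the pancreas of Zucker Diabetic Fatty males (fa/fa), rats that lack a working leptin receptor and become obese and diabetic, and 24 animals were randomised in the study. All were fed the Purina 5008 diet. The treated group received rosiglitazone, an agonist of PPAR gamma, as powdered Avandia tablets in the diet (3 mg per kg body weight) from week 5 and was sampled at 9 weeks of age. In the withdrawal group the drug was given over the same weeks, to week 9, and islets were taken at 11 weeks, 2 weeks after it had ended. Untreated rats were 13 weeks old. Each group had 3 arrays, labelled biological replicates, and how many animals gave each RNA sample was not stated. Every group had an age of its own, so drug and age cannot be told apart in any comparison.

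Peroxisome proliferator-activated receptors bind DNA as pairs with a retinoid X receptor and switch on genes that take up, store and burn fatty acids. PPAR gamma is best known from adipocytes, where it drives lipid storage, and PPAR alpha from liver, where it drives fatty acid oxidation. In beta cells, fatty acids both support insulin secretion and, in excess, impair it. The element that PPAR and retinoid X receptors bind is a direct repeat of the half-site AGGTCA with 1 base between the copies.

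Values are log2 probe set values as deposited, and all differences are on that log2 scale. In a whole islet preparation, fewer cells of a type and less RNA per cell cannot be told apart. The arrays were not alike in spread: the standard deviation over probe sets was 1.84 to 2.00 on treated, 1.65 to 1.72 on withdrawal and 1.66 to 1.77 on untreated arrays, with the first treated array highest. Bright probe sets were shifted between groups: with the tested probe sets ranked by mean and cut into 10 equal classes, the median of the brightest class was 0.53 in treated minus untreated and −0.72 in withdrawal minus treated, and that of the dimmest −0.03 and 0.06. After quantile normalization, which gives every array the same distribution, these medians were 0.01 and −0.04 in the brightest class. Quantile-normalized values are given beside those as deposited where they change a call of a member. Means of 7 beta cell markers ran from 11.15 to 12.04 over the arrays, and those of 8 acinar markers from 13.84 to 13.99, so exocrine RNA was present on all of them. Of the beta cell markers, 3 rose in treated against untreated and 4 fell in withdrawal against treated arrays (0 and 3 after quantile normalization), and 1 and 0 of the acinar markers did. Of all tested probe sets, 20.9% rose in the first comparison and 32.6% fell in the second (7.75% and 14.6% after quantile normalization). The part of cell makeup in the members' differences was not tested.

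As deposited, Fabp4 and the brighter Pdk4 probe set had more signal on treated than on untreated and withdrawal arrays, and the brighter Ucp3 probe set had less. The dimmer Pdk4 and Ucp3 probe sets gave no call. After quantile normalization the rises against untreated arrays were smaller, with limma adjusted p = 0.0615 for Pdk4 and 0.111 for Fabp4. Pparg, Ppara and Rxra themselves differed by at most 0.19 in size in any of the 3 comparisons. Of 12 member probe sets, 11 were bright enough to test. Between treated and untreated arrays 4 of the 11 passed the threshold (limma, Benjamini-Hochberg adjusted p under 0.05), 2 higher and 2 lower, against 28.1% of all tested probe sets (20.9% higher and 7.24% lower). Between withdrawal and treated arrays 3 of 11 passed, 1 higher and 2 lower, against 43.8% of all (11.2% higher and 32.6% lower). Between withdrawal and untreated arrays 0 of 11 passed in limma, against 0.159% of all, and 1 had an unadjusted p under 0.05, against 7.5% of all.

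Of the withdrawal against untreated background, 0.00483% was higher and 0.155% lower. After quantile normalization 3 of 11 were called between treated and untreated arrays, 0 higher and 3 lower, against 17.2% of all (7.75% higher and 9.44% lower). There, 3 were called between withdrawal and treated arrays, 1 higher and 2 lower, against 29.1% of all (14.6% higher and 14.6% lower), and limma called 0 between withdrawal and untreated arrays, against 0.42% (0.0338% higher and 0.387% lower). In that last comparison 1 member probe set, and 2170 of the 20694 in all, had an unadjusted p under 0.05. Values did not overlap between treated and untreated arrays for 2 higher and 1 lower of the 11 as deposited, against 31.2% and 11.7% of all tested probe sets. For withdrawal against untreated arrays these were 0 higher and 3 lower, against 7.65% and 10.3%, and for withdrawal against treated arrays 1 higher and 3 lower, against 14.9% and 39%. These counts cover 11 probe sets, some of them of the same gene, and the members are described one by one. The median difference over the 11 was 0.09 against 0.16 for all tested probe sets in treated minus untreated, −0.08 against −0.02 in withdrawal minus untreated, and −0.07 against −0.19 in withdrawal minus treated.

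**Figure D1:**
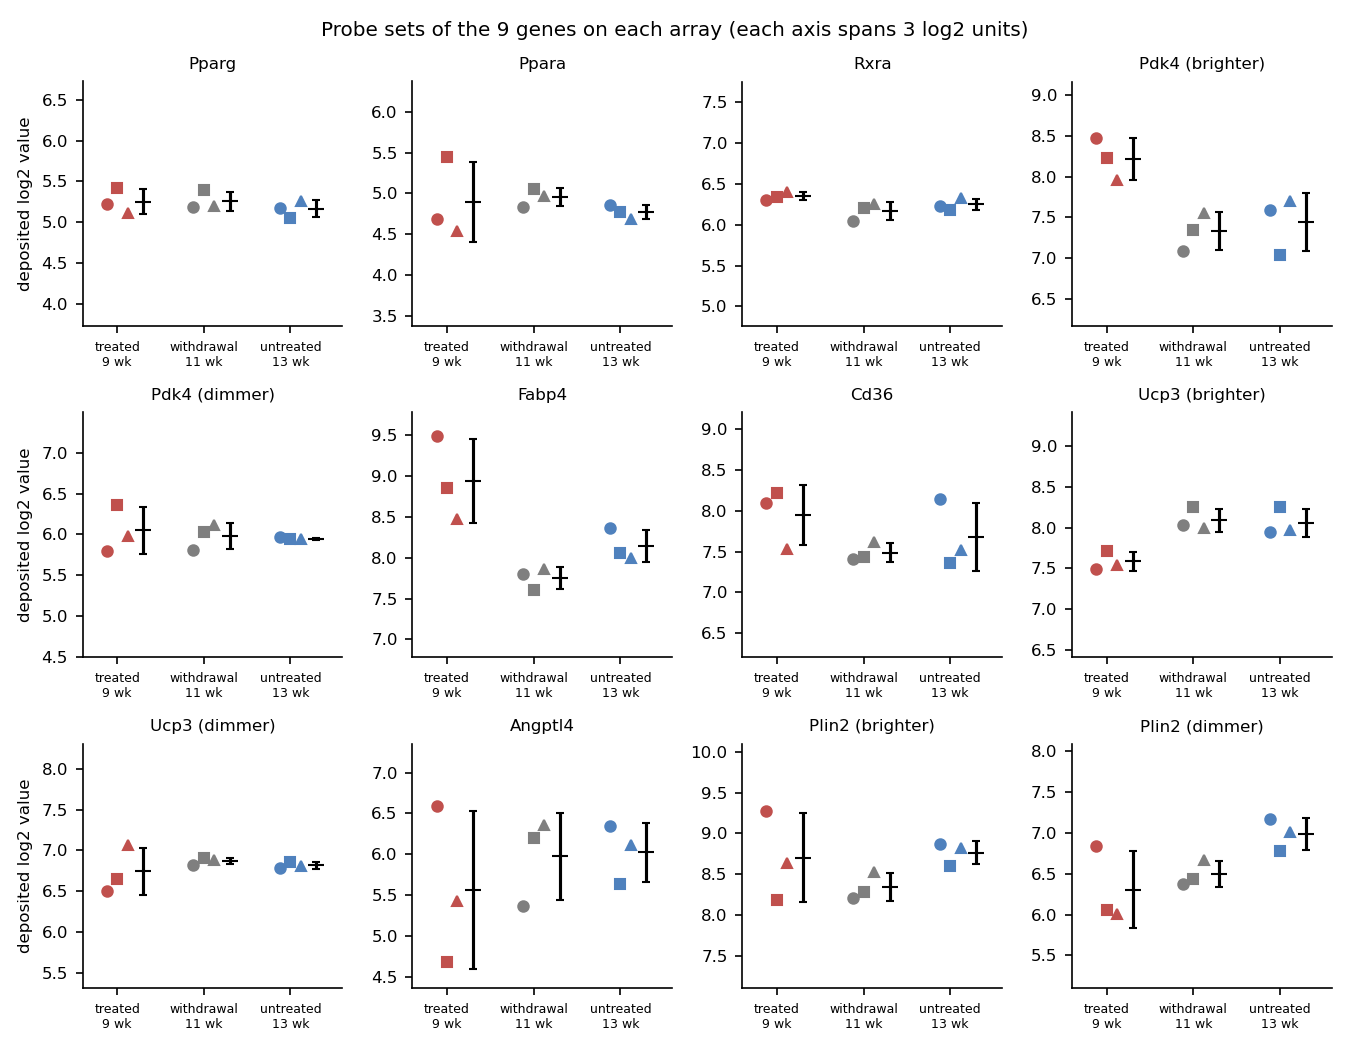
Deposited log2 values of the 12 probe sets of the 9 genes, with 1 panel per probe set. Coloured points are arrays (circle, square and triangle for replicates 1, 2 and 3), black bars are the mean ± SD of 3 arrays, and each vertical axis spans 3 log2 units. Pdk4 (brighter probe set) and Fabp4 are highest on the treated arrays and Ucp3 (brighter probe set) is lowest there, without overlap with either other group.

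Among the receptors, Pparg, the target of rosiglitazone, was at 5.22, 5.41 and 5.12 on treated, 5.18, 5.39 and 5.20 on withdrawal and 5.18, 5.06 and 5.26 on untreated arrays. The groups overlapped throughout. Treated minus untreated was 0.09 ± 0.13 (SE, n = 3 per group; limma adjusted p = 0.628), with a 95% interval from −0.19 to 0.36, and withdrawal minus treated was 0.01 (−0.27 to 0.28). All Pparg values lay below the array medians of 5.74 to 5.81, so these intervals are those of a dim probe set.

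Rxra, the retinoid partner of all PPARs, was at 6.30, 6.34 and 6.40 on treated, 6.05, 6.20 and 6.26 on withdrawal and 6.23, 6.19 and 6.33 on untreated arrays. All treated values were above all withdrawal values, but the difference of −0.18 ± 0.12 (SE; limma adjusted p = 0.216) did not pass, and treated and untreated values overlapped (0.10; −0.15 to 0.35). Ppara, the fatty acid oxidation receptor, was at 4.69, 5.45 and 4.53 on treated, 4.84, 5.05 and 4.97 on withdrawal and 4.85, 4.77 and 4.68 on untreated arrays. Its mean of 4.87 was below the limit of 4.95 for testing, and its treated values alone spanned the range of both other groups.

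The other receptors of the family gave no call with their brightest probe sets. Ppard, the widely expressed PPAR delta, was at 7.86 ± 0.27 (SD, n = 3) on treated and 7.67 ± 0.13 on untreated arrays (difference 0.19; limma adjusted p = 0.347), and a dimmer Ppard probe set was below the limit. The 2 probe sets of Rxrg, a retinoid X receptor of restricted expression, differed. In treated against untreated arrays the brighter gave −0.15 (limma adjusted p = 0.310) and the dimmer fell by 0.62 (adjusted p = 0.0182). In withdrawal against treated arrays the brighter gave 0.03 (adjusted p = 0.829) and the dimmer rose by 0.59 (adjusted p = 0.0128). Rxrb had means of 4.76 on treated and 4.58 on untreated arrays and was too dim to test.

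Pdk4 encodes a kinase that turns off pyruvate dehydrogenase and so diverts mitochondria from glucose to fatty acids. Its brighter probe set was at 8.47, 8.23 and 7.96 on treated, 7.09, 7.35 and 7.56 on withdrawal and 7.60, 7.04 and 7.70 on untreated arrays. Treated arrays were above all others, and withdrawal and untreated arrays overlapped. Pdk4 rose in treated against untreated arrays by 0.77 ± 0.20 (SE; limma adjusted p = 0.0154), or 1.71 times on the linear scale, and fell in withdrawal against treated arrays by 0.89 ± 0.20 (adjusted p = 0.00457). Withdrawal minus untreated was −0.12, with an interval from −0.54 to 0.31. The class of probe sets of like brightness had medians of 0.27 and −0.40 in the first 2 of these comparisons. On quantile-normalized values the difference from untreated arrays was 0.48 (adjusted p = 0.0615), no longer past the threshold, and that from treated to withdrawal arrays was −0.53 (adjusted p = 0.0315). Without the second untreated array the treated difference was 0.57 (adjusted p = 0.0725). A dimmer Pdk4 probe set, at 5.796 to 6.36 on treated and 5.94 to 5.96 on untreated arrays, did not show the pattern (0.10; adjusted p = 0.639).

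Fabp4 encodes a small carrier that binds fatty acids inside adipocytes, macrophages and capillary endothelium. Its probe set was at 9.50, 8.85 and 8.48 on treated, 7.80, 7.60 and 7.86 on withdrawal and 8.37, 8.06 and 7.998 on untreated arrays. The 3 groups did not overlap, in the order treated, untreated, withdrawal, and the treated arrays were the most spread. Relative to untreated arrays, Fabp4 rose by 0.80 ± 0.22 (SE; limma adjusted p = 0.0201) on treated arrays, 1.74 times on the linear scale. In withdrawal against treated arrays it fell by 1.19 ± 0.22 (adjusted p = 0.00201), the largest difference among the members' probe sets in any of the 3 comparisons. The untreated and withdrawal arrays, neighbours in that order, differed by −0.39 (−0.86 to 0.08; adjusted p = 0.763). After quantile normalization the rise against untreated arrays was 0.37 and did not pass (adjusted p = 0.111), whereas the fall on withdrawal was 0.69 and did (adjusted p = 0.00854). The rise was 0.52 without the first treated array (adjusted p = 0.0175), 0.76 without the second untreated array (adjusted p = 0.0816) and 0.73 without the third untreated array (adjusted p = 0.0622). Withdrawal against treated, both Pdk4 and Fabp4 were called in each of the 9 fits that left out 1 array.

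Markers of cells that carry Fabp4 moved unevenly. Of all tested probe sets, 20.9% rose and 7.24% fell in treated against untreated arrays, and 11.2% and 32.6% in withdrawal against treated arrays. After quantile normalization these shares were 7.75% and 9.44%, and 14.6% and 14.6%. Adipocyte markers (7 genes, mean over the list) were at 5.20 to 5.30 on treated, 5.54 to 5.61 on withdrawal and 5.32 to 5.45 on untreated arrays. Plin1, Cidec, Adipoq, Adrb3 and Lep had treated means of 4.36, 4.79, 4.89, 5.05 and 5.23, below the array medians. Car3 and Cfd had treated means of 6.07 and 6.44, above them. In treated minus untreated, Adipoq, Adrb3 and Lep gave −0.30, −0.46 and −0.55, and Car3 and Cfd 0.22 and 0.34. Withdrawal minus treated was 0.35, 0.84 and 0.79 for the former and −0.23 and −0.16 for Car3 and Cfd. Of 5 adipocyte markers tested, 0 rose and 1 fell in treated against untreated arrays, and without the first treated array 1 rose and 1 fell. In withdrawal against treated arrays, where Fabp4 fell, 3 of the 5 adipocyte markers rose and 0 fell (2 and 0 after quantile normalization). The 3 were Adipoq, Adrb3 and Lep, all dim on the treated arrays, whereas the brighter Car3 and Cfd had the sign of Fabp4. Endothelial markers (9 genes) were at 7.97 to 8.68 on treated, 7.72 to 7.99 on withdrawal and 7.95 to 8.36 on untreated arrays, with 0 of 9 rising or falling in treated against untreated and 2 falling in withdrawal against treated arrays. After quantile normalization 3 endothelial markers fell in the first comparison, and 1 rose and 0 fell in the second, with medians of −0.34 and 0.19. Macrophage markers (11 genes) ran from 6.42 to 7.85 on treated, 7.48 to 7.67 on withdrawal and 6.98 to 7.13 on untreated arrays. Of 9 tested, 0 rose and 1 fell in treated against untreated arrays. In withdrawal against treated arrays 2 rose (5 after quantile normalization, and 9 of 9 without the first treated array). The shares of all tested probe sets given above are those with all arrays, not those of the fit without the first treated array. The first treated array had the highest mean of the 3 treated arrays for endothelial and macrophage markers and also the highest Fabp4 value. That array was also the highest of the 3 for beta cell (12.04), stellate and matrix (10.24), lymphocyte (5.27) and skeletal muscle markers (5.43). It was not the highest for acinar or adipocyte markers. The part of adipocytes, endothelial cells and macrophages in the Fabp4 difference was not tested.

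Cd36, the membrane transporter that brings long-chain fatty acids into cells, was at 8.10, 8.21 and 7.54 on treated, 7.40, 7.44 and 7.62 on withdrawal and 8.15, 7.36 and 7.52 on untreated arrays. The groups overlapped: 1 untreated array was as high as the upper treated pair, and the third treated array lay among the rest. Treated minus untreated was 0.27 (−0.20 to 0.74; limma adjusted p = 0.354) and withdrawal minus treated −0.46 (−0.93 to 0.01; adjusted p = 0.101). Probe sets of like brightness had medians of 0.27 and −0.40. The Cd36 differences on quantile-normalized values were −0.0040 and −0.12. Without the third treated array Cd36 fell by 0.67 in withdrawal against treated arrays (adjusted p = 0.0275).

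**Figure D2:**
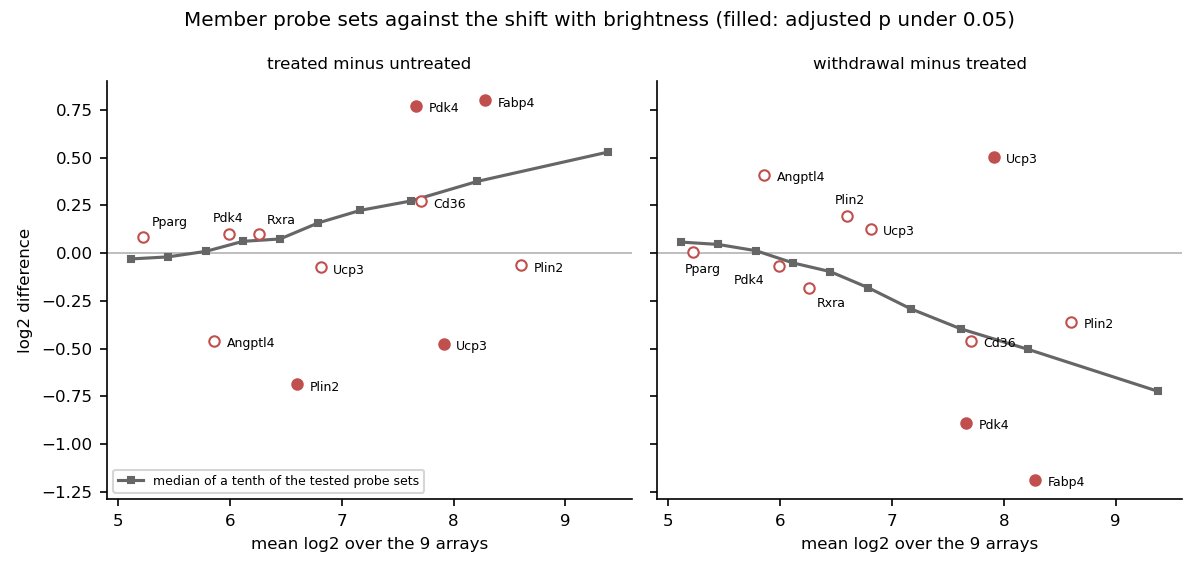
Log2 difference of each of the 11 tested probe sets (red points, filled where adjusted p was under 0.05) against its mean log2 over the 9 arrays, with the median of each of 10 brightness classes of the tested probe sets as a grey line. In both panels Cd36 and the dimmer Pdk4 probe set lie on or near the line, and the brighter Pdk4 probe set and Fabp4 lie beyond it. Both Ucp3 probe sets lie on its opposite side, the brighter further from it.

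Ucp3 encodes a mitochondrial carrier, best known from skeletal muscle, whose RNA follows fatty acid supply. Its brighter probe set was at 7.49, 7.72 and 7.54 on treated, 8.02, 8.25 and 7.99 on withdrawal and 7.95, 8.25 and 7.97 on untreated arrays. All treated arrays were below all others, and the withdrawal and untreated arrays overlapped almost wholly. Ucp3 fell by 0.47 ± 0.13 (SE; limma adjusted p = 0.0235) in treated against untreated arrays, where probe sets of like brightness had a median of 0.38, and rose by 0.50 ± 0.13 in withdrawal against treated arrays (adjusted p = 0.0109), where theirs was −0.50. On quantile-normalized values the same differences were larger, −0.73 (adjusted p = 0.0162) and 0.87 (adjusted p = 0.00526). The fall was 0.38 without the second untreated array (adjusted p = 0.104) and 0.45 without the third treated array (adjusted p = 0.0510), and the rise was 0.42 without the second withdrawal array (adjusted p = 0.0610). The dimmer Ucp3 probe set had the same signs but smaller differences, −0.07 (0.04 without the first treated array) and 0.13, neither past the threshold, with 1 treated array at 7.06 above every other array. Skeletal muscle markers (5 genes) had list means of 5.17 to 5.43 on treated, 5.20 to 5.28 on withdrawal and 5.12 to 5.29 on untreated arrays. Of the 3 tested, Tnnt3 fell by 0.57 in treated against untreated and rose by 0.86 in withdrawal against treated arrays. Ckm and Acta1 did not pass after adjustment and had the opposite signs, with medians over the 3 of 0.28 and −0.11. At an unadjusted limma p under 0.05, 1 of the 3 was higher and 1 lower in withdrawal against treated arrays. Of all tested probe sets, 52.3% were under it there in either direction. The part of muscle RNA in the Ucp3 values was not tested.

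The promoters of Pdk4 and Ucp3 are shown because these targets were called in opposite directions in the same comparisons. They are given 5′ to 3′ on the gene's strand, from 250 bases before to 50 bases after the gene start, from RefSeq on assembly GRCr8, in lower case with each AGGTCA half-site in capitals.
Ucp3, chr1:164227660-164227959, plus strand: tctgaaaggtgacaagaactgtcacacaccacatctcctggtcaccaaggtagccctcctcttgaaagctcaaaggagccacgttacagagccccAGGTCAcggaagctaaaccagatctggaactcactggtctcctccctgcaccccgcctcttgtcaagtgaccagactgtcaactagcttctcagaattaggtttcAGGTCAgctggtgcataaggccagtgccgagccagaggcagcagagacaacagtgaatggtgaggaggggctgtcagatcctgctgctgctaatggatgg
Pdk4, chr4:34568280-34568579, minus strand: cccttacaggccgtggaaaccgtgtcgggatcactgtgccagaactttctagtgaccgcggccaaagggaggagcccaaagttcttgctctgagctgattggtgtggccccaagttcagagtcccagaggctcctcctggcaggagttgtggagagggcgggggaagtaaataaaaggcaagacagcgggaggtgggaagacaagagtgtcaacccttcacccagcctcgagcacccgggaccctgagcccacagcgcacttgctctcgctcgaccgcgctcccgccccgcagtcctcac
The Ucp3 promoter held 2 half-sites, starting 155 and 50 bases before the gene start, and that of Pdk4 held none on either strand. Promoters were found for 8 of the 9 members, 10 sequences in all, and that of Ucp3 was the 1 with AGGTCA on either strand, which 16.2% of 33469 promoters of this length held. The full element, AGGTCA repeated after 1 base of any kind, was in 0.0538% of all promoters, and a looser one with any base at the fourth position of each copy (AGGNCA), which includes it, in 0.415%. Neither was in any of the 10 windows on either strand. The search for the single half-site was added after the data were seen, whereas the full and the looser element were planned. These matches describe letters in a short window and say nothing of binding elsewhere in the gene.

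Angptl4, a secreted inhibitor of lipoprotein lipase that responds to fasting and to PPAR ligands, was the most variable member. It was at 6.59, 4.67 and 5.43 on treated, 5.37, 6.20 and 6.36 on withdrawal and 6.34, 5.63 and 6.11 on untreated arrays. The treated arrays alone were spread more widely than the 6 other arrays together. Treated minus untreated was −0.46 ± 0.40 (SE; −1.34 to 0.42; limma adjusted p = 0.403). Both this and the difference between withdrawal and treated arrays (0.41; adjusted p = 0.427) moved with single treated arrays. Without the first treated array they were −0.97 (adjusted p = 0.0120) and 0.92 (adjusted p = 0.00992), and without the second −0.01 (adjusted p = 0.981) and −0.04 (adjusted p = 0.942).

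Plin2 coats the lipid droplets of most cell types and is stabilised by stored fat. Its brighter probe set was at 9.27, 8.19 and 8.64 on treated, 8.20, 8.29 and 8.53 on withdrawal and 8.87, 8.60 and 8.82 on untreated arrays. The dimmer was at 6.85, 6.06 and 6.01 on treated, 6.37, 6.44 and 6.67 on withdrawal and 7.17, 6.79 and 7.01 on untreated arrays. On both, withdrawal values lay below all untreated values, and the first treated array was above both other treated arrays. The dimmer probe set fell by 0.69 ± 0.21 (SE; limma adjusted p = 0.0298) in treated against untreated arrays, and by 0.78 after quantile normalization (adjusted p = 0.0119). The brighter differed by −0.06 as deposited (adjusted p = 0.845), but fell by 0.49 after quantile normalization (adjusted p = 0.0449). As deposited, the call of the dimmer probe set was absent from 5 of the 9 fits that left out 1 array, those without the second treated, the third treated or any of the untreated arrays (highest adjusted p = 0.0954). Withdrawal minus untreated was −0.42 and −0.50 for the brighter and dimmer probe sets (adjusted p = 0.738 and 0.632), neither past the threshold, and withdrawal minus treated was −0.36 and 0.19 as deposited and 0.17 and 0.28 after quantile normalization, in no case past the threshold. These last differences rested on single treated arrays. That of the brighter probe set was −0.07 without the first treated array and −0.62 without the second (adjusted p = 0.0226), and that of the dimmer 0.46 without the first (adjusted p = 0.0149), 0.07 without the second and 0.04 without the third treated array. The brighter probe set's treated minus untreated difference was −0.35 without the first and 0.19 without the second treated array, neither past the threshold.

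**Figure D3:**
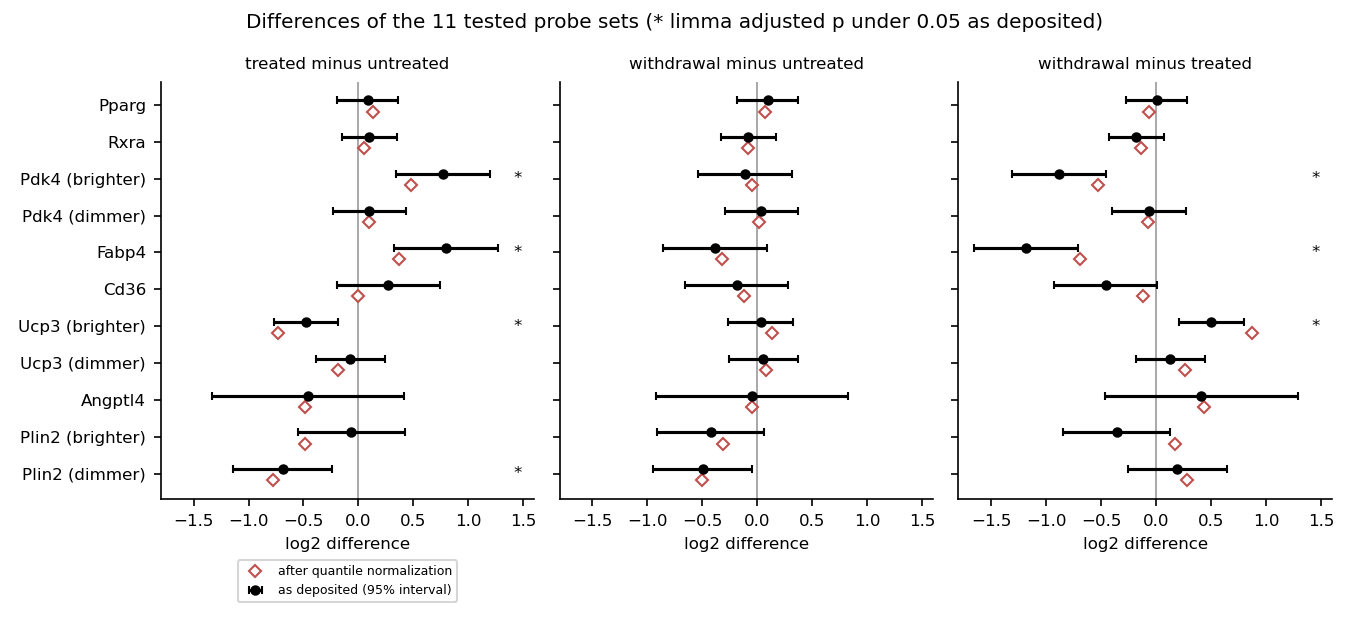
Log2 differences of the 11 tested probe sets in the 3 comparisons, with black points and 95% intervals for values as deposited and open diamonds for quantile-normalized values. An asterisk marks a limma adjusted p under 0.05 as deposited: Pdk4, Fabp4, Ucp3 and the dimmer Plin2 probe set in treated minus untreated, the first 3 of these in withdrawal minus treated, and none in withdrawal minus untreated.

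Pdk4, Fabp4 and Ucp3, with their brightest probe sets, were also the members called by the F test over the 3 groups (limma adjusted p = 0.00870, 0.00496 and 0.0180), as was the dimmer Plin2 probe set (adjusted p = 0.0466), which makes 4 of 11 probe sets against 37% of all. After quantile normalization 3 of 11 were called against 24.5% of all, and Pdk4 was not among them (adjusted p = 0.0515). The genes with the most similar profile over the 9 arrays, measured as the smallest root mean square distance between quantile-normalized values centred on each gene's mean, were Agpat4, Cirbp and Rbm15 for Fabp4 (distances of 0.10 to 0.11). They were Alg12, Pacs2 and Vps51 for Pdk4 (0.08 to 0.09) and Pear1, Map4k1 and Trpv5 for Ucp3 (0.05 to 0.08). No further PPAR target of the lists below was among them.

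Coregulators carry the signal of these receptors to the transcription machinery. Of 13 on the array, 12 were tested: in treated against untreated arrays 1 rose and 4 fell, and in withdrawal against treated arrays 3 rose and 3 fell. After quantile normalization these were 0 and 4 and 3 and 0. The median difference was 0.04 in the first and −0.10 in the second, against 0.16 and −0.19 for all tested probe sets. Of all tested probe sets, 20.9% rose and 7.24% fell in the first comparison, and 11.2% and 32.6% in the second. After quantile normalization these shares were 7.75% and 9.44%, and 14.6% and 14.6%. Between withdrawal and untreated arrays 0 of 12 passed in limma, and their median was −0.08. There, 1 of the 12 had an unadjusted p under 0.05, against 7.5% of all tested probe sets.

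Ppargc1a encodes PGC-1 alpha, the coactivator that links PPARs to mitochondrial biogenesis and fatty acid oxidation. It was at 6.34, 6.12 and 5.95 on treated, 7.24, 7.16 and 6.89 on withdrawal and 6.99, 7.26 and 6.78 on untreated arrays. The treated arrays were all below the others, which overlapped. Ppargc1a fell by 0.87 ± 0.16 (SE; limma adjusted p = 0.00420) in treated against untreated and rose by 0.96 ± 0.16 (adjusted p = 0.00144) in withdrawal against treated arrays, and was called in each of the 9 fits that left out 1 array in both comparisons. The other two Ppargc1a probe sets were too dim to test.

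Its relative Ppargc1b was at 6.52, 6.85 and 7.18 on treated, 7.69, 7.80 and 7.68 on withdrawal and 7.39, 7.61 and 7.42 on untreated arrays, the treated again lowest without overlap. It fell by 0.62 ± 0.16 (SE; limma adjusted p = 0.0157) in treated against untreated arrays, a call absent without 1 array, the second untreated (adjusted p = 0.0729), and rose by 0.87 (adjusted p = 0.00202) in withdrawal against treated arrays. Ncoa3, a coactivator with acetyltransferase activity, was at 6.55, 6.60 and 6.66 on treated, 7.04, 7.31 and 7.20 on withdrawal and 7.16, 7.28 and 6.94 on untreated arrays. It fell by 0.52 ± 0.13 (adjusted p = 0.0140; 0.0664 without the second untreated array) and rose by 0.58 (adjusted p = 0.00475) in the same comparisons. These 3 coactivators kept both calls after quantile normalization, with differences of −0.95, −0.77 and −0.63 against untreated arrays.

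The other coregulator calls were less steady. Lpin1, a phosphatidate phosphatase that also coactivates PPAR alpha, fell by 0.52 in treated against untreated arrays (limma adjusted p = 0.0376), but was called in 1 of the 9 fits that left out 1 array. A second Lpin1 probe set was at 6.29, 6.23 and 6.37 on withdrawal, below 6.75 to 6.91 on treated and 6.97 to 7.28 on untreated arrays. It fell by 0.82 in withdrawal against untreated arrays (adjusted p = 0.0232), a difference of −0.48 on the first (adjusted p = 0.497). Hdac3, a deacetylase of corepressor complexes, rose by 0.40 in treated against untreated arrays (adjusted p = 0.0428), a call present in 1 of the 9 fits that left out 1 array and lost after quantile normalization (0.12). The falls of Hdac3, Ncoa1 and Tbl1xr1 in withdrawal against treated arrays (−0.51, −0.47 and −0.41) were also lost there. A dimmer Tbl1xr1 probe set went the other way, with a rise of 0.999 as deposited (adjusted p = 0.00113). By contrast, a dimmer Ncoa1 probe set fell as well, by 0.72 as deposited (limma adjusted p = 0.00216). That Ncoa1 probe set rose by 0.48 in treated against untreated arrays (adjusted p = 0.0225).

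**Figure D4:**
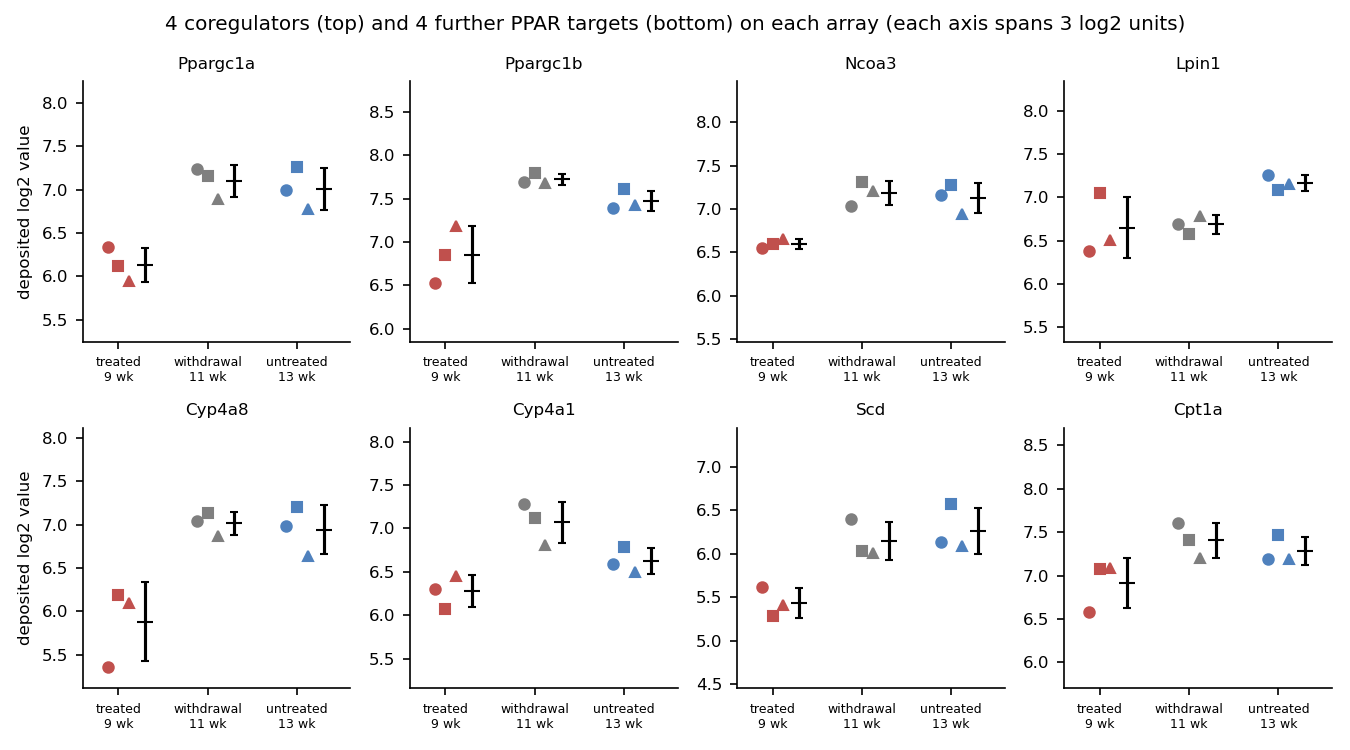
Deposited log2 values of 4 coregulators and 4 further PPAR targets, each with its brightest probe set. Points are arrays (circle, square and triangle for replicates 1, 2 and 3) and black bars the mean ± SD of 3 arrays, on vertical axes that span 3 log2 units. Treated arrays are lowest without overlap for Ppargc1a, Ppargc1b, Ncoa3, Cyp4a8, Cyp4a1, Scd and Cpt1a, whereas treated and withdrawal arrays overlap for Lpin1.

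Further PPAR targets were taken from lists ordered by function. Beside the counts of these lists, 20.9% of all tested probe sets rose and 7.24% fell in treated against untreated arrays (median 0.16). In withdrawal against treated arrays 11.2% of all rose and 32.6% fell (median −0.19). After quantile normalization these shares were 7.75% and 9.44%, and 14.6% and 14.6%. Among 9 tested genes of fatty acid uptake, binding and activation, 1 rose and 0 fell in treated against untreated arrays (median 0.09), and 0 rose and 3 fell in withdrawal against treated arrays (median −0.33). The riser was Dbi, the acyl-CoA binding protein, by 0.64 (limma adjusted p = 0.0414), called in 3 of the 9 fits that left out 1 array and not without the first treated array. Lpl, which frees fatty acids from lipoproteins, was at 9.44, 9.08 and 8.73 on treated, 8.23, 8.13 and 8.46 on withdrawal and 9.02, 8.54 and 8.80 on untreated arrays. It fell by 0.81 in withdrawal against treated arrays (adjusted p = 0.00549), as did Dbi by 0.77 and Acsl5, an acyl-CoA synthetase, by 0.71. After quantile normalization 0 of the 9 were called in either comparison.

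Of 14 tested genes of mitochondrial fatty acid oxidation and ketone synthesis, 0 rose or fell in treated against untreated arrays in limma (median 0.10). There, 2 had an unadjusted p under 0.05, against 42.4% of all tested probe sets. In withdrawal against treated arrays 1 rose and 6 fell (median −0.40), against 11.2% and 32.6% of all tested probe sets (median −0.19). The fallers included Cpt2, the inner carnitine palmitoyltransferase, by 0.75 (limma adjusted p = 0.00494) and Hadhb, a subunit of the trifunctional protein, by 0.69 (adjusted p = 0.00311). After quantile normalization Cpt2 fell by 0.32 (adjusted p = 0.0430), and the Hadhb difference was −0.01 (adjusted p = 0.941). The riser was Cpt1a, the outer transferase and the entry step of fatty acids, by 0.49 (adjusted p = 0.0311), although a second Cpt1a probe set differed by 0.02 and the call was present in 6 of the 9 fits that left out 1 array. After quantile normalization 3 rose and 2 fell in withdrawal against treated arrays, and 3 fell in treated against untreated arrays: Decr1 by 0.60, Ech1 by 0.55 and Ucp2 by 0.66. Between withdrawal and untreated arrays limma called 0 of the 14, but 8 were lower at an unadjusted p under 0.05. Of all tested probe sets, 7.5% were under it in either direction, and the medians were −0.32 and −0.02. The shift was not particular to these genes: of 7 beta cell markers, 4 were lower at an unadjusted limma p under 0.05 (median −0.33). The brightest class of tested probe sets had a median of −0.17 in withdrawal minus untreated. Decr1, the reductase for unsaturated fatty acids, had −0.61 there (adjusted p = 0.395) and Ucp2 −0.50 (adjusted p = 0.448). The probe sets of Hadha disagreed in sign, with −0.68 on the brightest and 1.02 and 0.74 on dimmer ones in withdrawal against treated arrays.

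Peroxisomal and microsomal oxidation held the largest difference among the tested genes of these lists. Cyp4a8, a cytochrome P450 of the family that hydroxylates the end of fatty acids, was at 5.36, 6.19 and 6.09 on treated, 7.04, 7.13 and 6.87 on withdrawal and 6.99, 7.20 and 6.64 on untreated arrays. Treated arrays were lowest without overlap, and the other groups overlapped. It fell by 1.06 ± 0.21 (SE; limma adjusted p = 0.00601) in treated against untreated and rose by 1.13 (adjusted p = 0.00221) in withdrawal against treated arrays. Its dimmer probe set gave −1.23 (adjusted p = 0.000874) and 1.47. Cyp4a1 rose by 0.80 ± 0.15 (adjusted p = 0.00259) in withdrawal against treated arrays, where it was at 7.28, 7.12 and 6.81 against 6.31, 6.08 and 6.45. The Cyp4a genes are a family of related sequences, and whether a probe set reads more than 1 of them was not tested. Of 6 tested genes of this class, 0 rose and 1 fell in treated against untreated arrays (median −0.16), and 2 rose and 1 fell in withdrawal against treated arrays (median 0.14), the faller being Hsd17b4, the peroxisomal bifunctional enzyme, by 0.58. After quantile normalization 2 fell in the first comparison, with Cat, the catalase, by 0.56, and 3 rose and 0 fell in the second.

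Among 10 tested genes of the lipid droplet, lipolysis and glycerol, 2 rose and 0 fell in treated against untreated arrays (median −0.0046). They were the triglyceride synthesis enzymes Agpat2 by 0.48 (limma adjusted p = 0.0470) and Dgat1 by 0.47 (adjusted p = 0.0417), called in 2 and 1 of the 9 fits that left out 1 array, neither without the first treated array, and neither after quantile normalization. In withdrawal against treated arrays 0 rose and 3 fell (median −0.16), against 11.2% and 32.6% of all tested probe sets. The fallers were Dgat1 by 0.52, Gpd1 by 0.30 and Mgll by 0.58, called in 7, 1 and 4 of the 9 fits that left out 1 array. The Mgll difference ran from −0.78 to −0.34 over those fits. After quantile normalization 1 rose and 1 fell there, Aqp7 by 0.41 and Gpd1 by 0.34. The defining droplet protein of adipocytes, Plin1, was too dim to test.

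Of 5 tested secreted and regulatory targets, 0 rose and 1 fell in treated against untreated arrays (median −0.20). The faller was Scd, the desaturase that makes monounsaturated fatty acids, at 5.62, 5.28 and 5.41 on treated, 6.40, 6.04 and 6.01 on withdrawal and 6.14, 6.57 and 6.08 on untreated arrays. Treated arrays were below all others. Scd fell by 0.83 ± 0.17 (SE; limma adjusted p = 0.00614), by the same amount after quantile normalization (adjusted p = 0.0106), and rose by 0.71 (adjusted p = 0.00591) in withdrawal against treated arrays, with both calls present in each of the 9 fits that left out 1 array. Adipoq, the adipocyte hormone adiponectin and a classic response to rosiglitazone in fat, was at 4.77 to 4.95 on treated and 5.00 to 5.37 on untreated arrays, all below the array medians, and differed by −0.30 (adjusted p = 0.0985). In withdrawal against treated arrays 2 of 5 rose, Scd and Adipoq, the latter by 0.35 (adjusted p = 0.0425), called in 2 of the 9 fits that left out 1 array and not after quantile normalization (0.26; adjusted p = 0.0998). Between withdrawal and untreated arrays limma called 0 of the 44 tested genes of these 5 lists as deposited. Before adjustment 14 of the 44 (31.8%) were under 0.05 in limma, 1 higher and 13 lower, against 7.5% of all tested probe sets. Of these 14, 8 were mitochondrial oxidation genes, and 4 of 7 beta cell markers (57.1%) were under 0.05 in the same comparison. After quantile normalization 14 of the 44 were under 0.05 before adjustment, and 2170 of the 20694 in all. Quantile normalization added 1 call, Gpd1, which fell by 0.51 (adjusted p = 0.0493).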

How the data were processed

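RNA of 9 islet samples was hybridised to Affymetrix rat genome arrays. The deposited values are log2 values, inferred from their range, 1 per probe set; RMA and MAS5 were used, per the submitters' processing notes, with roles and versions not given in the sources used here. Of 31099 probe sets, 57 controls were left out. Names came from the platform annotation (20826 probe sets with 1 symbol, 436 with several, 9780 with none), updated through RefSeq's GRCr8 gene table. The lowest 33.3% by mean log2 were left out, which left 20694 probe sets. All 9 arrays entered 1 linear model with group means, fitted with limma's lmFit and eBayes (version 3.58.1, under R 4.3.3) and tested on simulated data, with p-values adjusted by Benjamini-Hochberg over all tested probe sets. Intervals are 95%. A gene with several probe sets is represented by the brightest in counts of genes. Named genes were all member probe sets and, from each list, called genes with the smallest p. The members and lists were chosen with earlier results of these data known. The second probe sets of Lpin1, Ncoa1 and Tbl1xr1, the Cpt1a and Hadha ones, Tnnt3, and Decr1 and Ucp2 in withdrawal against untreated arrays were chosen after their values were seen. The arrays' number limits the precision, and p-values measure the spread between these arrays. Alternatives were quantile normalization, median centring, other filters, trend and robust settings, array weights, 6-array fits, a replicate block and leaving out each array.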

Additional observations from a re-analysis of the deposited data

How the results depend on the processing

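Of the single member differences under all alternatives, 564 kept their direction and side of the threshold, 18 lost and 17 gained a call, and 28 changed sign, in each case with no call under either setting. No called difference changed sign. Between treated and untreated arrays limma called 4 member probe sets and 5817 in all (74.2% higher): 3557 in all after quantile normalization (45.1% higher), 1 member and 3209 in all in a fit of the 6 arrays, and 0 to 5 members and 2033 to 6319 in all with 1 array left out. Between withdrawal and untreated arrays it called 0 members and 33 in all: 87 in all after quantile normalization, 494 with the 6 arrays, 3 members and 3275 in all with array weights, 1 and 409 with quantile normalization without the first treated array, and 0 members and 7 to 398 in all with 1 array left out. Between withdrawal and treated arrays it called 3 members and 9057 in all (25.5% higher): 6032 in all after quantile normalization (49.9% higher), 5 members with array weights, 5 with quantile normalization without the first treated array, and 2 to 5 members and 5587 to 9511 in all with 1 array left out. The F test called 4 members and 7656 in all: 3 members and 5073 in all after quantile normalization, and 2 to 6 members and 4768 to 8609 in all with 1 array left out. The cause of these differences was not tested. With the replicate number as a block, members called stayed at 4, 0, 3 and 4, and 50 probe sets in all were called between withdrawal and untreated arrays. Same-numbered arrays did not pair (correlations of deviations −0.283 to 0.504, 5 of 9 over 0.1, 3 of 9 arrays closest to their own number). Offsets on a linear scale were not run, since the values were log2. Leaving out the first treated array with quantile normalization was chosen after seeing the data. Drug and age cannot be told apart, and dim probe sets (Ppara, Pparg) limit what can be seen.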
